A study of Bos taurus with 6 samples.

Results

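The genes analysed here are 6 genes of milk fat synthesis and lipolysis in the bovine mammary gland, ACACA, FASN, SCD, FABP3, DGAT1 and PNPLA2, out of 24579 genes in the count files. They were chosen by their Ensembl identifiers for their place in milk fat metabolism. The rule used none of their measured values, but earlier results of these data were known when genes were chosen. The identifiers of 5 genes were set by the choice itself, and that of PNPLA2 came from the study's list of genes with differentially methylated cytosines in this gland. RNA sequencing was done on mammary biopsies of Holstein heifers at day 21 of lactation. The dams of 3 heifers had shade only (in utero heat stressed heifers, IUHT-H 9196, 9203 and 9204) and the dams of 3 heifers had shade, fans and soakers (in utero cooled heifers, IUCL-H 9202, 9214 and 9223) over the last 6 to 7 weeks of gestation. The submitters describe the same management for all heifers from birth, and the study names the culling of many IUHT-H as a limit on the animals it could choose from. The comparison asks whether the expression of milk fat genes differed between heifers gestated under these conditions.

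Milk fat is mostly triacylglycerol. In the ruminant gland, the secretory epithelium builds short and medium chain fatty acids from acetate, takes up longer chains from blood lipoproteins, desaturates part of them, and esterifies them to glycerol before the fat leaves the cell as a globule. ACACA and FASN act in the synthesis of fatty acids, SCD in desaturation, FABP3 in the binding of fatty acids within the cell, and DGAT1 in the last step of esterification. PNPLA2 acts in the opposite direction and releases a fatty acid from triacylglycerol.

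The total count per library ran from 75754791 to 84969285 for the IUHT-H libraries and from 91696849 to 101361294 for the IUCL-H libraries, and every IUHT-H was thus sequenced less deeply than every IUCL-H. The 10 most abundant genes, FASN among them, took from 64.7% to 74.7% of the counts of a heifer. Levels are given as counts per 1000000 counts (CPM) after TMM scaling, which brings the bulk of the genes to the same level in all heifers. Values of single heifers always follow the order 9202, 9214, 9223 for IUCL-H and 9196, 9203, 9204 for IUHT-H, and means are given with the SD over the 3 heifers of a group. The scaling factors ran from 0.812 in IUHT-H 9204 to 1.19 in IUHT-H 9196. The tissue could not be checked against cell type markers, because none of the 37 marker genes listed for this purpose has an identifier paired with its symbol in the tables used here. Each gene was tested with edgeR's quasi-likelihood test over all genes, and the adjusted p was 0.999 for each of the 6, so the unadjusted p is given beside an exact permutation test over heifers, which cannot go below 0.1 with 3 heifers against 3. All 6 milk fat genes passed the filter on low counts, with at least 1175 counts in each heifer.

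ACACA (ENSBTAG00000017567), acetyl-CoA carboxylase, makes the malonyl-CoA from which fatty acid chains are extended. The IUCL-H heifers had 242, 299.9 and 318 CPM, against 232, 247 and 378 CPM for the IUHT-H heifers. IUHT-H 9204 had the highest level of all heifers and IUHT-H 9196 the lowest, so the groups overlapped fully. The mean of IUHT-H was 286 ± 80.0 CPM and that of IUCL-H 287 ± 39.8 CPM. The log2 fold change of IUHT-H over IUCL-H was -0.0055 with a standard error of 0.22 (unadjusted p of 0.98, exact permutation P = 0.9), and its 95% interval of -0.51 to 0.49 leaves room for a change of 1.41-fold.

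FASN (ENSBTAG00000015980), fatty acid synthase, joins these units into palmitate and shorter chains and was counted 352249 to 604435 times per heifer. It stood at 5081, 5755 and 6890 CPM among the IUCL-H heifers and at 4334, 3752 and 5948 CPM among the IUHT-H heifers. Both lowest values were in IUHT-H, but IUHT-H 9204 lay above IUCL-H 9202 and 9214. The mean of IUHT-H was 4678 ± 1137 CPM, below the 5909 ± 914 CPM of IUCL-H, and the log2 fold change came to -0.34 (standard error 0.25, 95% interval -0.92 to 0.25, unadjusted p of 0.22, exact permutation P = 0.3). FASN alone took 0.439% to 0.515% of a library of IUHT-H and 0.513% to 0.623% of a library of IUCL-H. In bulk tissue, fewer cells of a type and less RNA per cell cannot be told apart.

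SCD (ENSBTAG00000045728), stearoyl-CoA desaturase, places the double bond that turns stearate into oleate. It differed most between the groups among the 6 genes. The levels were 783, 1403 and 1324 CPM for IUCL-H against 570.0, 529.9 and 1044 CPM for IUHT-H. Only IUHT-H 9204 reached into the range of IUCL-H, where it passed IUCL-H 9202. The mean of IUHT-H was 715 ± 286 CPM and that of IUCL-H 1170.2 ± 338 CPM, a fitted ratio of 0.611. The log2 fold change was -0.71 (standard error 0.33, 95% interval -1.46 to 0.039, unadjusted p of 0.060, exact permutation P = 0.2), so SCD was lower on average without passing the test.

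FABP3 (ENSBTAG00000016819), the fatty acid binding protein of heart and mammary gland, carries fatty acids in the cytosol. IUCL-H heifers had 1394, 1711 and 1694 CPM, and IUHT-H heifers had 1222, 1128 and 1934 CPM. As in ACACA, IUHT-H 9204 was above all IUCL-H, whereas the other two IUHT-H were below all of them. The log2 fold change was -0.16 (standard error 0.24, 95% interval -0.72 to 0.40, unadjusted p of 0.52, exact permutation P = 0.5).

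DGAT1 (ENSBTAG00000026356), diacylglycerol acyltransferase, adds the last fatty acid of triacylglycerol. Its level was 17.5, 19.7 and 21.8 CPM for IUCL-H, compared with 16.8, 14.7 and 19.4 CPM for IUHT-H. The order of heifers was close to that of FASN, and only IUHT-H 9204 was above an IUCL-H. Its log2 fold change of -0.21 had the smallest standard error of the 6 genes, 0.14 (95% interval -0.54 to 0.12, unadjusted p of 0.17, exact permutation P = 0.2). In the RefSeq annotation of the assembly ARS-UCD2.0, DGAT1 overlaps HSF1, and ACACA overlaps 3 other genes. How the reads in such overlaps were assigned, and whether counting used the strand, is not given in the sources used here, so part of these counts is uncertain.

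PNPLA2 (ENSBTAG00000005144), adipose triglyceride lipase, starts the breakdown of triacylglycerol. It was nearly level in IUCL-H, with 19.3, 18.5 and 19.9 CPM, and uneven in IUHT-H, with 19.1, 31.8 and 17 CPM. IUHT-H 9203 was therefore far above the other heifers, while IUHT-H 9204 was the lowest of all. On this TMM scale the coefficient of variation of IUHT-H was 35.3%, and that of IUCL-H 3.66%. With library size only they were 48.1% and 12.8%. The log2 fold change of 0.24 (standard error 0.22, 95% interval -0.28 to 0.75, unadjusted p of 0.32, exact permutation P = 0.9) rested on IUHT-H 9203, and without this heifer it was -0.091.

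**Figure D1:**
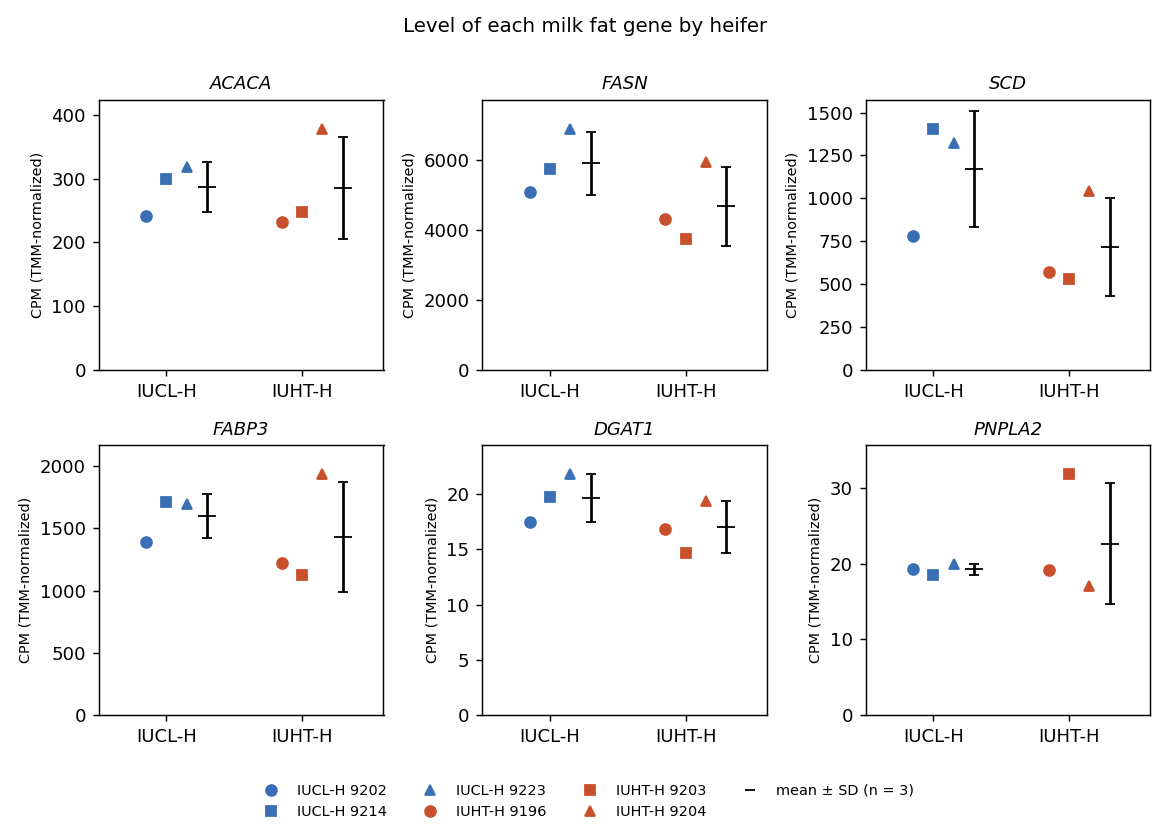
Level of the 6 genes in each heifer in CPM after TMM scaling (vertical axes start at 0), with IUCL-H in blue and IUHT-H in red and the mean ± SD of 3 heifers in black. IUHT-H 9204 (red triangles) lies above the other IUHT-H in ACACA, FASN, SCD, FABP3 and DGAT1, and IUHT-H 9203 (red square) stands above all heifers in PNPLA2 with 31.8 CPM.

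Of the 6 genes, 5 had a log2 fold change below 0, ACACA only at -0.0055, and 1, PNPLA2, was above 0. Their median was -0.19. Over all 14724 genes tested, 49.4% were below 0 and the median was 0.0028. Of the 481 genes with a mean of at least 100 CPM, 58.2% were below 0 and the median was -0.037. ACACA, FASN, SCD and FABP3 are among these abundant genes. None of the 6 passed the study's cut-off of 0.01 on the unadjusted p of edgeR's quasi-likelihood test, which 0.428% of all genes passed, and none was below 0.05, as 2.54% of all genes were. With edgeR's exact test, edgeR's likelihood ratio test and DESeq2, again 0 of the 6 passed 0.01, which 0.733%, 0.761% and 0.843% of all genes passed. SCD alone of the 6 was below 0.05 in these tests (0.032, 0.032 and 0.017), as were 2.44%, 2.56% and 3.18% of all genes. In the quasi-likelihood test SCD was also below 0.05 with library size only (0.017, and 1.46% of all genes) and with every gene of at least 1 count kept (0.042, and 2.74%). The same held in this test without IUCL-H 9202 (0.021, and 7.99%) and without IUHT-H 9204 (0.0058, and 6.32%). With TMM scaling, in none of the 6 were the values of the 3 IUHT-H all on one side of those of the 3 IUCL-H. This pattern was seen in 6.06% of all genes, and in 2.92% with IUHT-H lower. As shares of the library, SCD had it, with at most 0.0847% in IUHT-H and at least 0.0859% in IUCL-H. How many of all genes had it on that scale is not given here.

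Without IUHT-H 9196 or 9203 the log2 fold change of SCD was -0.57 or -0.54, and it was larger in size without IUHT-H 9204. When this heifer was left out, the log2 fold change of SCD was -1.09 with an unadjusted p of 0.0058 and an adjusted p of 0.60 in edgeR's quasi-likelihood test, while 1.49% of all genes passed 0.01 in that fit, 0.537% with IUHT-H lower. FASN was then at -0.55 (unadjusted p of 0.057), FABP3 at -0.45 (0.054), DGAT1 at -0.32 (0.058) and ACACA at -0.26 (0.17), each with an adjusted p of 0.76 or 0.77. FASN, SCD, FABP3 and DGAT1 then had no overlap between the groups, with IUHT-H lower, as did 11.9% of all genes. In these 4 genes only IUHT-H 9204 had overlapped IUCL-H, so leaving it out made this outcome certain. The 11.9% covers all genes, whichever heifer overlapped in them, so no conclusion is drawn from this comparison. IUHT-H 9204 also had the largest share of counts in the 10 most abundant genes, 74.7%, against 65.8% and 64.7% in IUHT-H 9196 and 9203. The IUCL-H heifers had 67.6%, 72.5% and 72.1%, so IUHT-H 9204 was nearer to IUCL-H 9214 and 9223 than to the other IUHT-H.

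**Figure D2:**
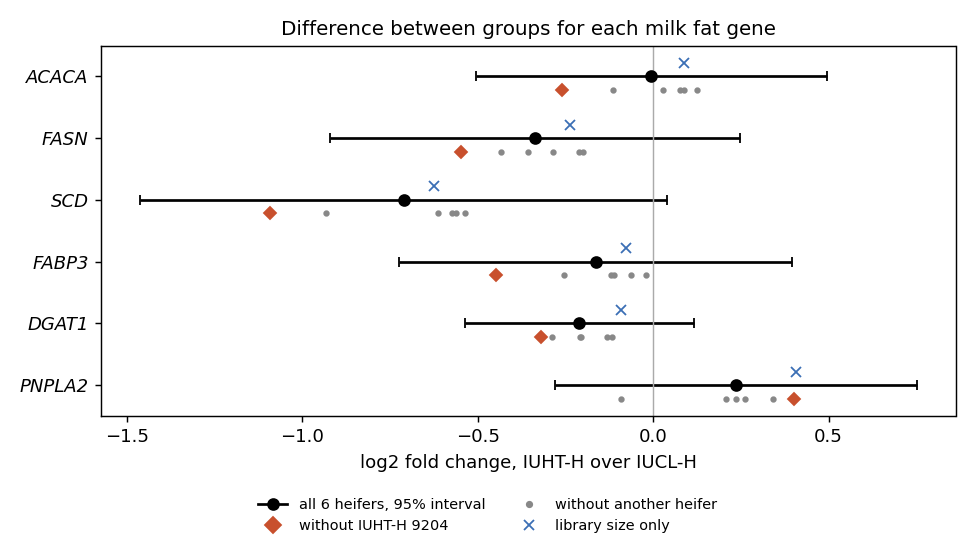
Log2 fold change of IUHT-H over IUCL-H for each gene with its 95% interval (black, all 6 heifers, TMM scaling), with the values without IUHT-H 9204 (red diamonds), without each of the other heifers (grey points) and with scaling by library size only (blue crosses). All 6 intervals include 0, and SCD moved from -0.71 to -1.09 without IUHT-H 9204.

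Ratios between genes within a heifer do not depend on how libraries are scaled against each other. Among the 15 pairs of the 6 genes, 4 had ratios of counts that did not overlap between IUHT-H and IUCL-H, compared with 6.61% of all pairs of genes tested. Pairs share genes, and 3 of the 4 involve ACACA. With 3 heifers per group the exact permutation test (two-sided) cannot give less than P = 0.1, which these 4 pairs reached, and the adjusted p over the 15 pairs was 0.38.

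Of these 4 pairs, SCD to ACACA had the largest difference. The ratio was 3.24, 4.68 and 4.16 among IUCL-H and 2.46, 2.14 and 2.76 among IUHT-H, a difference of -0.70 on the log2 scale (exact permutation test, P = 0.1). The within-group SD of this log2 ratio was 0.23. For the log2 level of SCD alone it was 0.50 with TMM scaling and 0.27 with library size only. IUHT-H 9204, which overlapped IUCL-H in the TMM-scaled level of SCD, lay with the other IUHT-H once SCD was set against ACACA. As a share of the library, SCD alone was already narrowly apart, with 0.0847% in IUHT-H 9204 and 0.0859% in IUCL-H 9202. The share of all genes with no overlap on that scale is not given here, so whether this is unusual was not tested. The median log2 fold change of all genes on that scale was 0.13.

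The ratio of FASN to ACACA was 21.0, 19.2 and 21.7 for IUCL-H, compared with 18.7, 15.2 and 15.8 for IUHT-H. The gap between IUCL-H 9214 and IUHT-H 9196 was small. FABP3 per ACACA averaged 5.60 ± 0.24 among IUCL-H and 4.98 ± 0.38 among IUHT-H, with its nearest values at 5.32 and 5.27. FABP3 per SCD averaged 1.43 ± 0.31 among IUCL-H and 2.04 ± 0.16 among IUHT-H, with all IUHT-H higher. FABP3 and ACACA thus both stood higher relative to SCD in IUHT-H than in IUCL-H.

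The other 11 ratios overlapped. SCD per FASN was 0.154, 0.244 and 0.192 for IUCL-H against 0.132, 0.141 and 0.175 for IUHT-H (difference -0.38 on the log2 scale, exact permutation test, P = 0.2). The ratio of the lipase PNPLA2 to DGAT1, breakdown against assembly of triacylglycerol, was 1.10, 0.940 and 0.915 for IUCL-H against 1.14, 2.16 and 0.878 for IUHT-H, so only IUHT-H 9203 lay far from the other heifers. Without IUHT-H 9204 the number of pairs with no overlap rose from 4 to 13 of 15, while 24.0% of all pairs of genes then had no overlap. Without IUCL-H 9202 it was 7 of 15, with 24.8% of all pairs of genes. It was 6 without IUHT-H 9196, 5 without IUCL-H 9214, and 4 without IUCL-H 9223 or without IUHT-H 9203. The count of 13 thus belongs to the left-out heifer that gave the most.

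**Figure D3:**
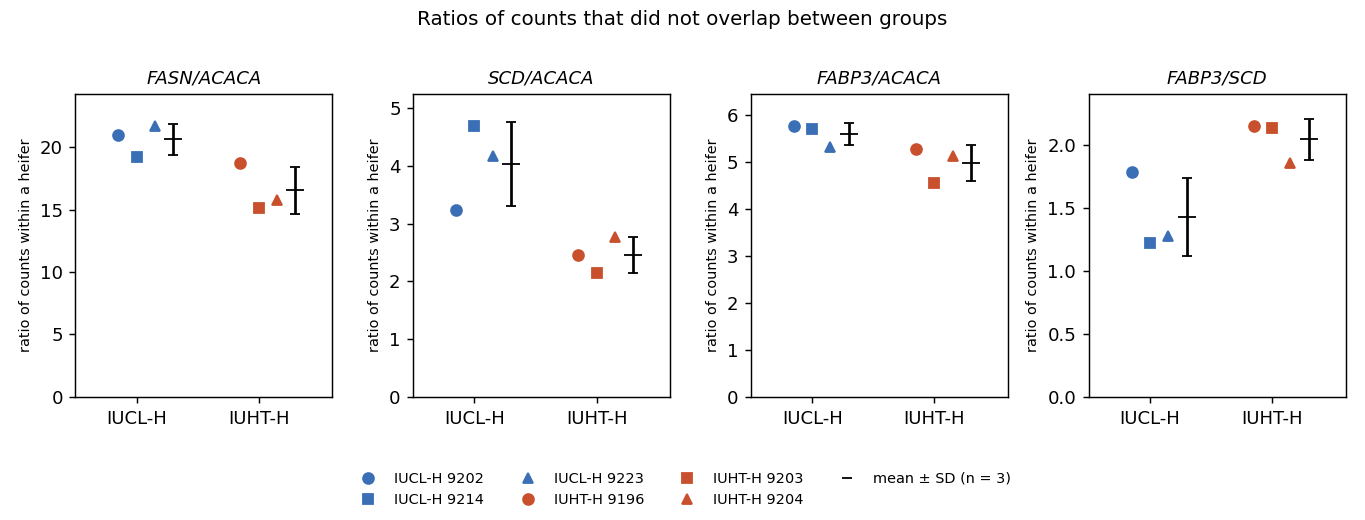
Ratio of counts within each heifer for the 4 pairs of genes with no overlap between groups (vertical axes start at 0), with IUCL-H in blue, IUHT-H in red and the mean ± SD of 3 heifers in black. SCD per ACACA is at most 2.76 in IUHT-H and at least 3.24 in IUCL-H, whereas FABP3 per ACACA is separated only by the gap between 5.27 and 5.32.

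On the TMM scale, where all genes of a heifer share 1 scaling factor, the 5 genes of fat synthesis were highest in the heifers in which the most abundant genes were highest. The 9 most abundant genes other than FASN, which the files list by identifier only, together had 807668, 790028 and 914202 CPM on the TMM scale in IUCL-H 9214, IUCL-H 9223 and IUHT-H 9204. They had 610684, 548997 and 548681 CPM in IUCL-H 9202, IUHT-H 9196 and IUHT-H 9203. The former 3 heifers also had the 3 highest levels of ACACA, FASN, SCD, FABP3 and DGAT1, but not of PNPLA2. As shares of the library, none of the 5 genes had its 3 highest values in these 3 heifers, and DGAT1 had its lowest share, 0.00158%, in IUHT-H 9204.

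Per 1000 counts of these 9 genes, FABP3 had 2.28, 2.12 and 2.14 counts for IUCL-H against 2.23, 2.06 and 2.12 counts for IUHT-H. The heifers were thus nearly level in FABP3 on this scale, with a within-group SD of 0.058 in log2, and 0.0273% of the genes had a smaller one. For ACACA the values were 0.396, 0.371 and 0.403 for IUCL-H against 0.422, 0.451 and 0.413 for IUHT-H. Here all IUHT-H were above all IUCL-H, as in 1.51% of the genes (difference 0.14 on the log2 scale, exact permutation test, P = 0.1). SCD had 1.28, 1.74 and 1.68 counts per 1000 for IUCL-H against 1.04, 0.966 and 1.14 for IUHT-H. All IUHT-H were lower, as in 0.47% of the genes (difference -0.57 on the log2 scale, exact permutation test, P = 0.1). This scale was chosen after the data were seen, and the groups overlapped in FASN, FABP3, DGAT1 and PNPLA2.

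The spread between heifers therefore depended on the scale. With TMM scaling, the within-group SD of log2 CPM was 0.31 in ACACA, 0.29 in FASN, 0.50 in SCD, 0.32 in FABP3 and 0.34 in PNPLA2, all above the median of 0.23 over the genes tested, and 0.18 in DGAT1. With scaling by library size only, it was 0.071 in ACACA and 0.088 in FABP3, and 0.346% and 1.03% of the genes had a smaller SD. FABP3 then took 0.152% to 0.153% of all counts in each IUCL-H, but 0.145%, 0.132% and 0.157% in IUHT-H. The within-group SD of DGAT1 was 0.14 with library size only and 0.21 relative to the 9 abundant genes. The median over all genes was 0.34 and 0.41 on these 2 scales. A smaller SD than that of DGAT1 was found in 35.4% of the genes with TMM and 5.32% with library size only. Relative to the 9 abundant genes it was found in 6.71%. Beside all genes, DGAT1 was thus also more even on the latter 2 scales. PNPLA2 had a larger within-group SD with library size only, 0.52, with 0.00138% to 0.00373% of the counts in IUHT-H. Its place among all genes moved little. The share of genes with a smaller SD was 69.7% with TMM, 75.3% with library size only and 76.6% relative to the 9 abundant genes. The 95% binomial interval (exact Clopper-Pearson) of the share of PNPLA2 was 0.00359% to 0.00386% in IUHT-H 9203 and 0.00130% to 0.00146% in IUHT-H 9204, so counting error, which is all these intervals cover, was small beside the difference between these heifers.

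**Figure D4:**
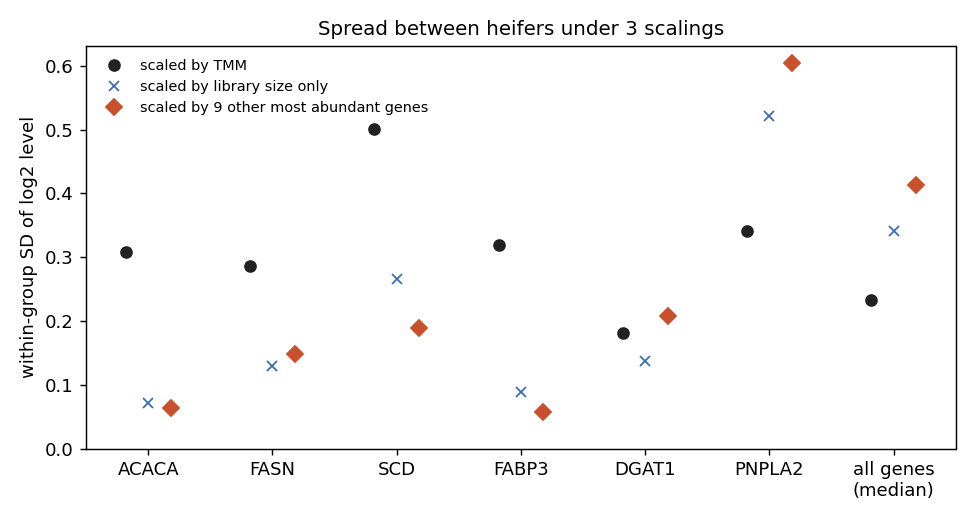
Within-group SD of the log2 level of each gene (vertical axis, pooled over 3 IUHT-H and 3 IUCL-H) with TMM scaling (black), library size only (blue crosses) and relative to the 9 other most abundant genes (red diamonds), beside the median of all genes tested. ACACA and FABP3 drop from 0.31 and 0.32 with TMM to 0.064 and 0.058 relative to the abundant genes. PNPLA2 rises from 0.34 to 0.60, and the median of all genes rises as well, from 0.23 to 0.41.

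On the TMM scale the 5 genes of fat synthesis varied together across the 6 heifers, with Pearson's r between 0.72 and 0.99 (median 0.90) in their 10 pairs. It was highest for FASN and DGAT1 (r = 0.99, exact permutation P = 0.0056; Spearman's rho = 0.94, exact permutation P = 0.017), and r was 0.95 without the heifers farthest from the median of FASN, IUCL-H 9223 and IUHT-H 9203. After adjustment over all 15 pairs, the lowest p was 0.060 for r and 0.13 for rho (exact permutation tests). PNPLA2 had an r below 0 with each of the other genes, from -0.72 with FABP3 (exact permutation P = 0.047, adjusted P = 0.089; rho = -0.77, exact permutation P = 0.10) to -0.46 with ACACA. Without IUHT-H 9203 and 9204, r of PNPLA2 with FABP3 was 0.016, so this relation rested on these heifers. With scaling by library size only, r of PNPLA2 was -0.95 with FABP3 and turned to 0.21 with DGAT1, which had been -0.72 with TMM. Within groups, as deviations from the group means, the median r among the 5 genes was 0.92. With scaling by library size only, this median was 0.029. The genes of a heifer share its scaling factor, so these correlations are not free of the choice of scale.

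Among 107 genes with a symbol in the study's tables and a mean of at least 10 CPM, the genes most like the mean pattern of the 5 synthesis genes over the 6 heifers were NAA15 (r = 0.93), CLDN3 (0.93), UBE2M (0.92), PPP6R2 (0.88) and CHMP2A (0.86). CLDN3, a claudin of tight junctions, had 66.5, 86.0 and 94.1 CPM for IUCL-H against 72.2, 62.4 and 85.2 CPM for IUHT-H. NAA15 is a subunit of an N-terminal acetyltransferase, UBE2M conjugates NEDD8, and CHMP2A belongs to the ESCRT-III complex. An r of at least 0.9 with this pattern was found in 3.38% of all genes tested. The genes most like PNPLA2 were RARA (r = 0.84), PBX2 (0.83), ARHGAP10 (0.82), ASAP1 (0.79) and COPG2 (0.76), and 0.462% of all genes reached 0.9. RARA, a receptor of retinoic acid, had 23.7, 25.9 and 19.6 CPM for IUCL-H against 25.8, 36.8 and 17.9 CPM for IUHT-H. As in PNPLA2, IUHT-H 9203 was the highest and IUHT-H 9204 the lowest heifer. These likenesses are descriptions over 6 heifers.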

How the data were processed

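Mammary RNA of 3 IUHT-H and 3 IUCL-H, 1 library per heifer, was analysed, and a further IUCL-H of the study was not analysed here. The authors mapped the reads with TopHat2 (version 2.0.13) and deposited raw counts of reads per Ensembl gene, without normalization or a filter. The submitters' processing notes also name HTSeq and the build UMD3.1, whereas the study's methods name bosTau7. Genes with low counts were removed with edgeR's filterByExpr (edgeR 4.0.16 under R 4.3.3), leaving 14724 of 24579 genes. Libraries were scaled by TMM, and groups were compared over all genes with edgeR's quasi-likelihood test, without covariates, with a cut-off of 0.01 on the unadjusted p, as in the study, and with Benjamini-Hochberg adjusted p-values. The standard error is the log2 fold change divided by the square root of F. Log2 CPM used a prior count of 0.5. Levels and ratios of the 6 genes were also compared by exact permutation over heifers. The labels name each heifer, so the p-values set the difference between groups against variation between animals. With 1 biopsy and 1 library for each, variation between animals is not separated from that between biopsies or libraries.

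Genes and lists were chosen with earlier results of these data known. Of 74 genes listed for milk fat pathways, only the 6 analysed have an identifier paired with a symbol in the tables used here, so the pathway lists hold no further gene. The genes named are these 6, by rule, and the 5 most like each pattern. The genes in the closing section were chosen after the files were seen. Scripts were tested on simulated counts. The alternatives were edgeR's exact and likelihood ratio tests, DESeq2 (version 1.42.0), a robust fit, RLE factors, library size only, other filters on low counts, leaving out the 10 most abundant genes with FASN kept, and leaving out each heifer in turn. Scaling by the 9 other most abundant genes was added after the data were seen. Coordinates of RefSeq genes (assembly ARS-UCD2.0) were used only to find overlapping genes. Transcript lengths were not used here, so levels were not compared between genes, and a ratio of counts is compared only between heifers.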

Additional observations from a re-analysis of the deposited data

How the results depend on the processing

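The log2 fold changes of SCD, FASN, FABP3 and DGAT1 stayed below 0 under every test, scaling, filter and left-out heifer that was run. SCD was between -1.09 and -0.54 and FASN between -0.55 and -0.20. DGAT1 was between -0.32 and -0.091 and FABP3 between -0.45 and -0.020, so FABP3 came close to 0. These settings reuse the same heifers and are not independent. The range over left-out heifers was -0.26 to 0.12 in ACACA and -0.091 to 0.40 in PNPLA2, so both changed direction. ACACA was also above 0 with library size only (0.088) and with the filter of more than 1 CPM (0.00074). Library size only moved the median of all genes to 0.13, and relative to it ACACA was at -0.046, SCD at -0.76 and PNPLA2 at 0.27. Over left-out heifers, 0 to 1 of the 6 genes passed the cut-off of 0.01 on the unadjusted p, where only SCD passed, without IUHT-H 9204 (-1.09), and 4 to 13 ratio pairs had no overlap. The median r among the 5 synthesis genes was 0.029 with library size only. The within-group SD with library size only was 0.071 in ACACA, 0.13 in FASN, 0.27 in SCD, 0.088 in FABP3, 0.14 in DGAT1 and 0.52 in PNPLA2, and relative to the 9 other most abundant genes it was 0.064, 0.15, 0.19, 0.058, 0.21 and 0.60. The causes were not tested. Over all genes, 63 passed 0.01 on the unadjusted p, against 108 with edgeR's exact test, 112 with its likelihood ratio test, 124 with DESeq2, 246 without IUCL-H 9202, 225 without IUHT-H 9204 and 38 without IUCL-H 9214. Scaling by keratins was not run, because their identifiers are not paired with symbols in the tables used here. No paired analysis was possible because the groups share no heifer numbers.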

Other observations

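The study's lists of differentially methylated and differentially expressed genes, which name PNPLA2, were pooled here over liver and mammary gland. From them, 7 further genes of lipid or phosphoinositide metabolism, or of nuclear receptor coactivation, were looked at. CHKA, choline kinase, which starts the synthesis of phosphatidylcholine, had 13.7, 26.5 and 24.8 CPM for IUCL-H against 18.2, 28.3 and 31.9 CPM for IUHT-H. The groups overlapped, and the log2 fold change was 0.27 (standard error 0.28, unadjusted p of 0.37 in edgeR's quasi-likelihood test). GPCPD1, which breaks down glycerophosphocholine, had 16.6, 12.4 and 15.5 CPM for IUCL-H against 16.0, 16.6 and 12.3 CPM for IUHT-H, and its log2 fold change was 0.012 with a 95% interval of -0.36 to 0.38. OCRL, a phosphoinositide phosphatase, was at -0.30 (95% interval -0.71 to 0.11), PI4KA, a phosphatidylinositol kinase, at -0.18, MED1, a coactivator of nuclear receptors, at -0.20 and ABCA2, a lipid transporter, at -0.061. None of these 6 genes passed 0.01 or 0.05 on the unadjusted p of edgeR's quasi-likelihood test, and all had an adjusted p of 0.999. The values of the groups overlapped in each. Over all genes tested, 0.428% passed 0.01, 2.54% were below 0.05 and 6.06% had no overlap. GAL3ST1, of sulfatide synthesis, had 0 to 4 counts per heifer and was removed as too low to test.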
